A study of Mus musculus with 9 samples.

Results

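The Ms4a genes encode small membrane proteins of white blood cells, and the best known of them is Ms4a1, which encodes the B cell surface protein CD20. The 8 genes described here are Ms4a1, Ms4a4b, Ms4a4c, Ms4a4d, Ms4a6b, Ms4a6c, Ms4a6d and Ms4a7, out of 29995 genes in the deposited table that leaves out immunoglobulin (Ig) genes. They were chosen by the log2 change of plasma cells (PCs) against naive B cells, which was lower for Ms4a4c than for any other gene tested. Since PC levels chose the genes, every PC comparison of a listed gene is a description without a test. The comparison of NP-specific B cells with naive B cells was not used in that choice and is tested, but it shares the naive libraries with it. The spread used in that test is estimated from all 9 libraries, PCs included.

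RNA was sequenced from splenic cells of B6.Blimp1+/GFP mice, aged 12 weeks, which carry a green fluorescent protein (GFP) reporter at 1 allele of the gene for Blimp1, the transcription factor that drives PC differentiation. By the labels all mice, also those that gave the naive cells, had been injected intraperitoneally 4 days earlier with 50 µg of NP-LPS, in which the hapten nitrophenyl (NP) is joined to bacterial lipopolysaccharide. Naive B cells were sorted as IgD high, B220+ and NP-, NP-specific B cells as IgD-, B220+, NP+, GFP- and CD138-, and PCs as IgD-, NP+, GFP+ and CD138+ with any B220 level. Cells stained for CD4, CD8a, Ter-119 or F4/80 were gated out, and each group had 3 libraries. By the study's account the NP-specific B cells and PCs were sorted from the same mice, and which libraries share a mouse is not given in the sources used here. A sorted group is a population of cells of mixed activation stage, and in bulk RNA fewer cells of a type and less RNA per cell cannot be told apart.

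Levels are given in TPM, a relative transcript abundance that corrects for transcript length and so allows genes to be compared with each other. In the table without Ig genes, depth ranged from 20189900 to 38602300 estimated reads a library. Pax5, the transcription factor that maintains B cell identity, lay at 74.0 to 90.4 TPM in naive, 42.9 to 56.8 TPM in NP-specific and 0.219 to 1.18 TPM in PC libraries. Prdm1, which encodes Blimp1, lay at 1.97 to 3.24 TPM, 3.09 to 7.24 TPM and 78.4 to 116 TPM in the same order. Other PC markers differed in both directions between NP-specific and naive B cells. Tnfrsf17, the receptor BCMA, was higher (log2 change 3.68, adjusted p 0.00118 by limma) and Sdc1, which encodes CD138, was lower (-2.52, adjusted p 0.00212 by limma). Igj, the joining chain of IgM and IgA, was at 273 to 465 TPM in NP-specific against 1.61 to 4.96 TPM in naive libraries in the table that keeps Ig genes. PC replicate 3 stood apart, with a summed level of 4889 TPM for 6 liver markers against 22.8 and 26.3 TPM in the other PC libraries. It also held 132 TPM of 12 monocyte and macrophage markers against 40.5 and 49.3 TPM. NP-specific replicate 2 stood apart in 5 neutrophil markers, which summed to 49.3 TPM there, nearly all from S100a8 and S100a9, against 0.408 and 0.597 TPM in the other NP-specific libraries.

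MS4A proteins cross the membrane several times and are thought to act in clusters with other receptors. CD20 is found on B cells from the late precursor stage onwards, takes part in calcium signalling after antigen receptor engagement, and is the target of therapeutic antibodies that deplete B cells but spare most PCs. Ms4a4b and Ms4a6b have been studied mainly in T cells, and Ms4a6c, Ms4a6d and Ms4a7 mainly in monocytes and macrophages. Much less is known of Ms4a4c and Ms4a4d.

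RefSeq places 21 Ms4a genes side by side on chromosome 19, from 10962289 to 11640851 on the mouse assembly GRCm38.p6, a span of 679 kb. Ms4a1 occupies chr19:11249679-11266149 and Ms4a7 chr19:11321039-11336146. The other 6 listed genes follow each other without an intervening Ms4a gene, beginning with Ms4a4c at chr19:11404717-11427246 and Ms4a4b at chr19:11443558-11463549. Ms4a6c lies at chr19:11469353-11487182 and Ms4a6b at chr19:11518559-11530403. Ms4a4d at chr19:11536794-11558466 and Ms4a6d at chr19:11586606-11604804 close the row.

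The upstream regions are shown for the pairs Ms4a4c and Ms4a4b, and Ms4a6c and Ms4a6b, because within each pair the sequences were alike while the transcript levels or their changes were not. Each window runs from 250 bases before to 50 bases after a RefSeq transcript start (GRCm38.p6, plus strand, 300 bases). The Ms4a4c window lies inside the gene span given above and so belongs to a start other than the outermost one. RefSeq windows were found for 6 of the 8 genes, and none for Ms4a1 and Ms4a6d. Capitals mark every match, on either strand, to the octamer ATGCAAAT, which is bound by the factors Oct1 and Oct2, and to GGAAGT, a core bound by ETS-family factors such as PU.1. The windows are chr19:11407411-11407710 for Ms4a4c, chr19:11443308-11443607 for Ms4a4b, chr19:11469118-11469417 for Ms4a6c and chr19:11518309-11518608 for Ms4a6b.
Ms4a4c: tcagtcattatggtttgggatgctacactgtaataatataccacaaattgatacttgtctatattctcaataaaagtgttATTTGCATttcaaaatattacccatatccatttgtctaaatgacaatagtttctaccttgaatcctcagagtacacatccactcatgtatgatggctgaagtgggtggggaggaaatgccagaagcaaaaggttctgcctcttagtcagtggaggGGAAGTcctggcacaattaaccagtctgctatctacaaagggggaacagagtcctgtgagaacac
Ms4a4b: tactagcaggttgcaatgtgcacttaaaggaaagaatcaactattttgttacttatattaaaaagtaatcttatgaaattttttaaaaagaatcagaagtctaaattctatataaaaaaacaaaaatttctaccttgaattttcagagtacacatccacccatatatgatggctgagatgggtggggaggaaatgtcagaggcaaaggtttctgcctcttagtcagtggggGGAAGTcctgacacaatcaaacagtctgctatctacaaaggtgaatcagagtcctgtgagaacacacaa
Ms4a6c: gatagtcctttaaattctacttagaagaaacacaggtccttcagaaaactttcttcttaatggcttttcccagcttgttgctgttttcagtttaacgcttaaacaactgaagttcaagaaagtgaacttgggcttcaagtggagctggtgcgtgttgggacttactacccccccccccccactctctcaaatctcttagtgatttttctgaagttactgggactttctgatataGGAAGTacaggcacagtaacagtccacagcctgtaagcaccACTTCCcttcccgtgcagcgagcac
Ms4a6b: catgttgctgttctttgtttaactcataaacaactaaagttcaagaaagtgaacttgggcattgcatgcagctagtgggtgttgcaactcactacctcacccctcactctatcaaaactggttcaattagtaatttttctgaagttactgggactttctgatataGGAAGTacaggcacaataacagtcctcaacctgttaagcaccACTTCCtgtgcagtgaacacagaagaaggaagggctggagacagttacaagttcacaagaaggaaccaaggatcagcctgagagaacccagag

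The Ms4a4c and Ms4a4b windows were identical at 80.9% of 282 aligned bases, with a longest shared run of 20 bases. The Ms4a6c and Ms4a6b windows were identical at 85.9% of 220 aligned bases, with a longest shared run of 48 bases. Every other pair among the 7 windows of the listed genes, of which Ms4a7 has 2, was identical at 59.0 to 67.9% of its aligned bases. In both pairs the GGAAGT core was held by both windows. It began 15 bases before the start in Ms4a4c, 19 bases before it in Ms4a4b, and 16 and 85 bases before it in Ms4a6c and Ms4a6b, which both held a second match on the opposite strand. All 6 genes with a window had at least 1 match to GGAAGT, a short core that 23.8% of all 32851 RefSeq windows of this length hold. Of the windows of the listed genes, the octamer was in that of Ms4a4c alone, 170 bases before the start and on the opposite strand, and 1.74% of all windows hold it. AGNGAAAG, a Blimp1-type site held by 8.63% of all windows, matched in no window of the listed genes. The matches to the octamer and to GGAAGT did not overlap each other. These are matches of letters only, and binding was not measured.

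The order of levels differed between the groups, as the plot of TPM by library shows. In naive B cells Ms4a1 was highest at 864 ± 101 TPM (SD, n = 3), followed by Ms4a4c at 524 ± 39.1 TPM, and no library of the one overlapped the other. Ms4a6c, Ms4a6b, Ms4a6d and Ms4a4b followed at means of 11.5 to 21.3 TPM, and each of them overlapped the next in this order. Ms4a7 came next at 2.41 ± 0.377 TPM and Ms4a4d last at 0.488 ± 0.250 TPM. In NP-specific B cells the first 4 places were the same, and Ms4a6d had gone from the fifth place to the seventh. In PCs Ms4a1 was still highest, Ms4a6d was second at 11.2 ± 5.96 TPM, and Ms4a4c was seventh at 0.439 ± 0.392 TPM. The levels of the genes from the second to the eighth place in PCs overlapped from each to the next.

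**Figure D1:**
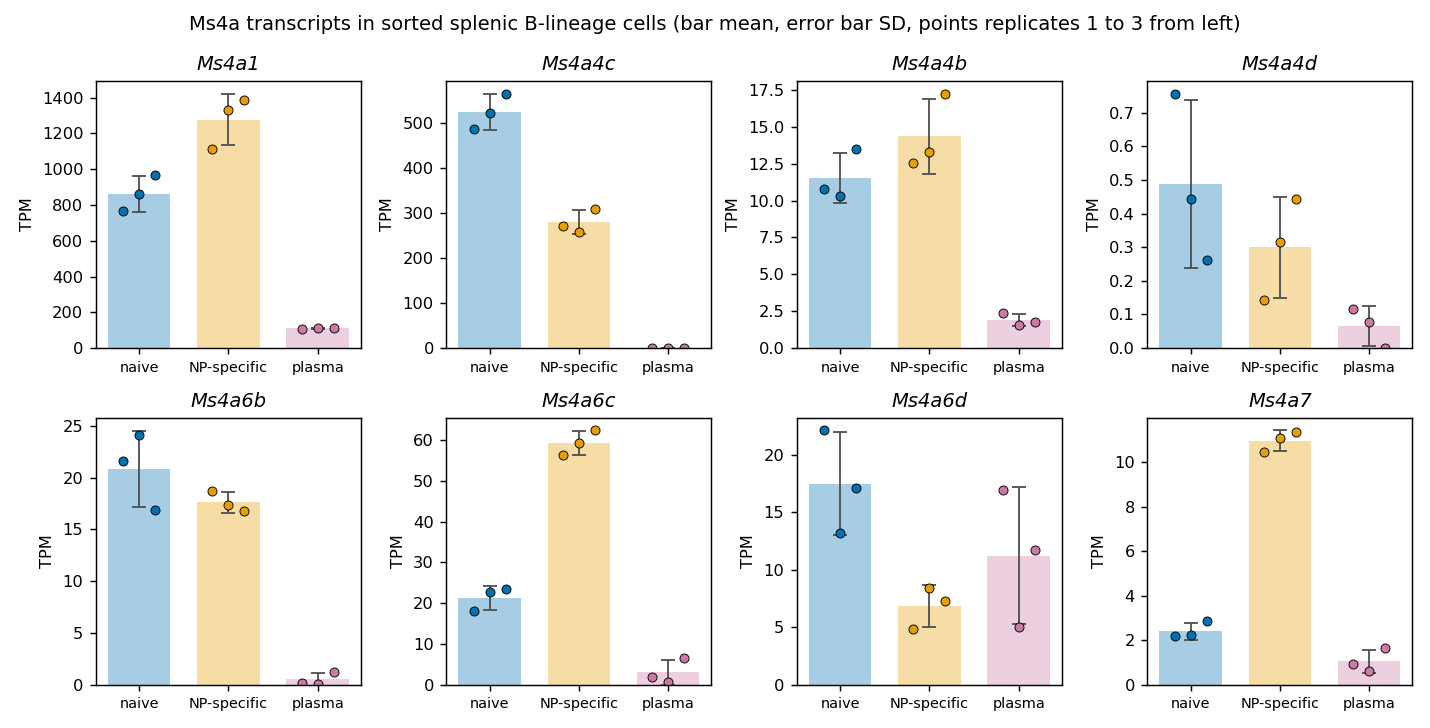
TPM of the 8 Ms4a genes in naive B cells, NP-specific B cells and PCs, each panel with its own linear axis from 0. Bars are means, error bars SD and points the 3 libraries of a group. Ms4a6c and Ms4a7 are highest in NP-specific B cells, where their libraries lie above all others, while Ms4a4c is near 0 in all PC libraries.

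NP-specific B cells were compared with naive B cells to see how the family differs in antigen-binding cells that were sorted as negative for the Blimp1 reporter. Ms4a7 and Ms4a6c were higher and Ms4a6d was lower in NP-specific B cells by more than 2-fold. Ms4a1 was higher and Ms4a4c lower by less than 2-fold. Ms4a4b and Ms4a6b did not pass the test. Of the 8 genes, 7 reached 1 TPM in 3 or more libraries and entered 1 limma fit with 12892 genes. A gene was called with a Benjamini-Hochberg adjusted p under 0.05 and a fold change over 2. This held for 3 of the 7 genes, 2 higher and 1 lower, and for 18.5% of all genes tested (8.13% higher and 10.4% lower). Over all genes 1048 were called higher and 1340 lower, and the split turned to 1258 and 1022 with median-of-ratios scaling and to 1157 and 976 with quantile normalization. On adjusted p alone, 5 of the 7 passed, against 42.1% of all genes. Without NP-specific replicate 2, the library with neutrophil transcripts, the same 3 genes were called, at 1.97 for Ms4a7, 1.45 for Ms4a6c and -1.47 for Ms4a6d.

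Ms4a7 was at 2.17, 2.22 and 2.84 TPM in the naive libraries and at 10.45, 11.1 and 11.4 TPM in the NP-specific libraries. The groups did not overlap, and Ms4a7 was 1 of 5 such genes among the 7 tested, against 55.9% of all genes. The log2 change was 1.98 ± 0.22 (SE), with an adjusted p of 7.5e-05 by limma. This gene rose in every alternative processing in which it was tested, by 1.82 to 2.22 on the log2 scale.

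Ms4a6c was at 18.0, 22.7 and 23.4 TPM in naive B cells and at 56.4, 59.3 and 62.4 TPM in NP-specific B cells. All NP-specific libraries were above all naive ones, and the log2 change was 1.45 ± 0.25 (SE), with an adjusted p of 0.00123 by limma. With the deposited log2 values and no weights the change was 1.51 but the adjusted p was 0.0712 by limma. Unweighted log2 (TPM + 0.1) values gave 1.48 with 0.0607. Both of these fits take their spread from all 9 libraries, PCs included. With only the naive and NP-specific libraries in the weighted fit, the change was 1.45 with an adjusted p of 0.000107 by limma. Some reads of this gene cannot be assigned with certainty. In the GENCODE M21 transcripts, 58.1% of the 31-base words of Ms4a6c also occur in transcripts of other genes, and 51.0% occur in BE692007. BE692007 is a noncoding gene on the opposite strand whose span covers 93.8% of Ms4a6c in GENCODE M21 and 51.2% in RefSeq. It has no row of its own in the tables used here, and the annotation that the reads were matched to is not given in the sources used here. The cDNA method used here is not stated to keep the strand, so the 2 genes cannot be told apart in such reads.

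Ms4a6d was at 22.1, 13.2 and 17.1 TPM in naive B cells and at 4.81, 8.45 and 7.24 TPM in NP-specific B cells. The libraries did not overlap, and the log2 change was -1.31 ± 0.39 (SE), with an adjusted p of 0.0200 by limma. The call rested on single libraries: without naive replicate 1 the log2 change was -1.13 with an adjusted p of 0.0684, and without NP-specific replicate 1 it was -1.09 with 0.0717. It was also lost when all genes were tested with no filter on low values (adjusted p 0.0780) and with the deposited log2 values and no weights (0.0509).

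Ms4a1, the gene of CD20, was at 766, 859 and 967 TPM in naive B cells and at 1114, 1330 and 1388 TPM in NP-specific B cells. Every NP-specific library was above every naive library. The log2 change was 0.56 ± 0.11 (SE), with an adjusted p of 0.00199 by limma and a 95% interval of 0.32 to 0.79, so it stayed below the 2-fold line.

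Ms4a4c was at 486, 521 and 564 TPM in naive B cells and at 270, 258 and 309 TPM in NP-specific B cells. Its libraries did not overlap either, and the lower group was the NP-specific one. The log2 change was -0.92 ± 0.11 (SE), with an adjusted p of 9.1e-05 by limma and a 95% interval of -1.15 to -0.68, which spans the 2-fold line. With quantile normalization it was -1.22 and the gene was called. With the deposited log2 values and no weights it was -0.88 and the adjusted p was 0.479 by limma. That fit takes its spread from all 9 libraries, among them the PC libraries, where this gene was near 0. With only the naive and NP-specific libraries in the weighted fit, the change was -0.92 with an adjusted p of 0.000241 by limma.

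Ms4a1 and Ms4a4c, which together made up most of the Ms4a transcripts in both groups, thus changed in opposite directions. The TPM of Ms4a4c was 63.5, 60.7 and 58.4% of that of Ms4a1 in the naive libraries and 24.3, 19.4 and 22.3% in the NP-specific libraries. The ratio was lower in all 3 NP-specific libraries, and the difference of the mean log2 ratios was -1.48 ± 0.10 (SE). The ratio was formed with the opposite changes known and is a description without a test. Scaling a library by 1 factor leaves the ratio unchanged. Quantile normalization, which is no such factor, gave log2 changes of -1.22 for Ms4a4c and 0.59 for Ms4a1.

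Ms4a4b was at 10.8, 10.3 and 13.5 TPM in naive B cells and at 12.5, 13.3 and 17.2 TPM in NP-specific B cells. These ranges overlapped, and the log2 change was 0.29 with a 95% interval of -0.11 to 0.69 (adjusted p 0.220 by limma). Ms4a6b was at 21.6, 24.2 and 16.9 TPM and at 18.7, 17.4 and 16.8 TPM, again with overlap. Its log2 change was -0.23 with a 95% interval of -0.67 to 0.20 (adjusted p 0.363 by limma). Both intervals exclude a 2-fold change in either direction. Ms4a4d was below 1 TPM in every library, with 0.262 to 0.756 TPM in naive and 0.143 to 0.442 TPM in NP-specific libraries, and was not tested.

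Within the pairs with similar windows shown above, the levels or changes thus differed. Ms4a4c was at 486 TPM or more in naive B cells, where Ms4a4b was at 13.5 TPM or less. Ms4a6c and Ms4a6b overlapped in naive B cells, but in NP-specific B cells Ms4a6c was at 56.4 TPM or more and Ms4a6b at 18.7 TPM or less. The transcripts of these pairs also share sequence: 227 of the 31-base words of Ms4a4c (13.0%) occur in Ms4a4b, and 281 of those of Ms4a6c (13.9%) occur in Ms4a6b.

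**Figure D2:**
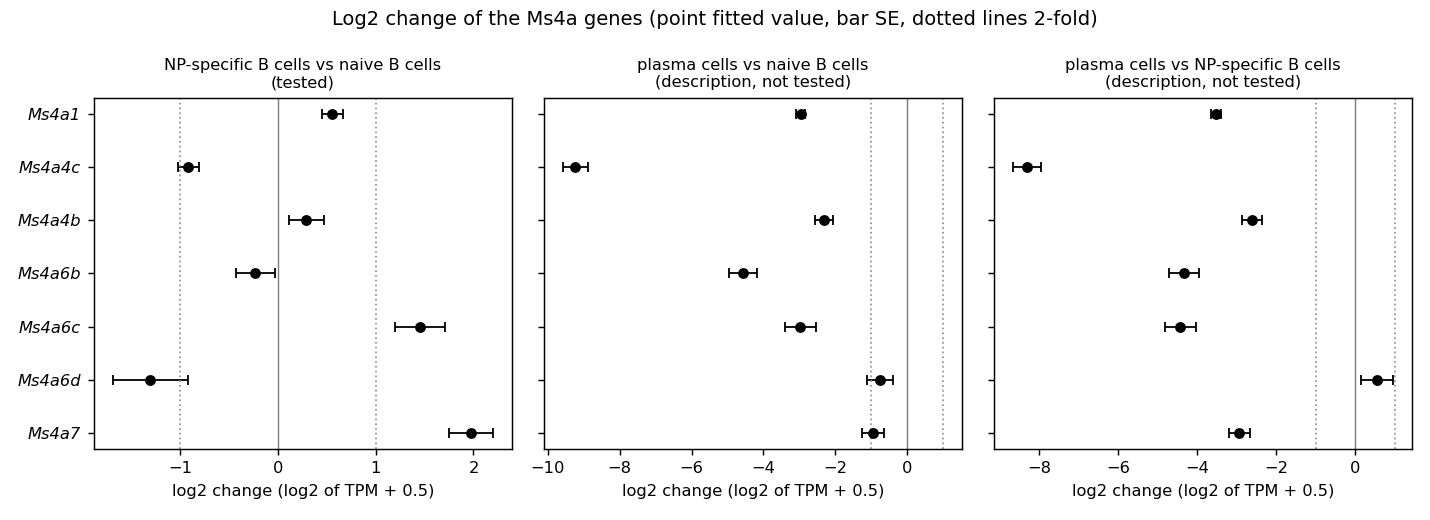
Log2 change of the 7 tested Ms4a genes in the 3 comparisons, on the log2 (TPM + 0.5) scale, with SE as bars and dotted lines at 2-fold. In NP-specific against naive B cells Ms4a7 and Ms4a6c are higher and Ms4a6d is lower by more than 2-fold. Ms4a4c has the lowest change of the 7 genes in both PC comparisons (-9.23 and -8.31), which are not tested.

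Ms4a6c, Ms4a6d and Ms4a7 have been studied mainly in monocytes and macrophages, so markers of these cells were read in the same libraries. Ms4a6c and Ms4a7 were higher and Ms4a6d was lower in NP-specific B cells. Of 12 monocyte and macrophage markers, 4 were tested and 2 were called, both higher in NP-specific B cells, where 8.13% of all genes were called higher: Cd68, a lysosomal protein, and Itgam, an integrin chain. The summed level of all 12 was 12.7 to 14.0 TPM in naive and 69.8 to 87.3 TPM in NP-specific libraries. This rise came from Cd68 and Itgam. Without them the other 10 summed to 6.57 to 7.31 TPM in naive and 4.05 to 8.78 TPM in NP-specific libraries. Csf1r, the receptor for the macrophage growth factor, was at 0.392 to 0.601 TPM and 0.476 to 1.54 TPM, and Emr1, the gene of the F4/80 antigen, at 2.93 to 4.23 TPM and 1.33 to 3.68 TPM. The complement genes C1qa, C1qb and C1qc, which mark tissue macrophages, were at most 0.0651 TPM in every NP-specific library, and C1qb was at 0 in all 3. The 4 dendritic cell markers summed to 7.08 to 7.93 TPM in naive and 20.8 to 23.5 TPM in NP-specific libraries, of which Flt3 made up 15.8 to 19.4 TPM. The part of macrophage or dendritic cell RNA in the changes of Ms4a6c, Ms4a6d and Ms4a7 was not tested.

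In PCs all 8 genes were lower on average than in naive B cells, by very different amounts. Ms4a4c was at 0.564, 0 and 0.754 TPM in the PC libraries, which correspond to 9.0, 0 and 11.9 estimated reads. A count of 3 reads, taken as the floor of detection for counting error only, equals 0.183 to 0.190 TPM for this gene in these libraries. The naive mean was 1193 times the PC mean, and the mean of NP-specific B cells 635 times. Both folds rest on single PC libraries: without PC replicate 3 they were 1858 and 989, and without PC replicate 2 they were 795 and 423. On the log2 scale of the fit the change from naive B cells was -9.23 ± 0.35 (SE), the lowest of all 12892 genes. The next genes were H2-Oa at -8.95 and Serpinb1a at -8.86. Against NP-specific B cells it was -8.31 ± 0.35 (SE), second to Serpinb1a at -8.45. These values chose the gene list, and for a gene this close to 0 they depend on the values fitted: the change from naive B cells was -8.55 with an offset of 1 and -11.01 with estimated counts.

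Ms4a1 was at 107, 112 and 112 TPM in PCs. The libraries were alike, and the level was 0.128 times the naive mean and 0.0863 times that of NP-specific B cells. The log2 change was -2.96 ± 0.12 (SE) from naive B cells and -3.52 ± 0.12 (SE) from NP-specific B cells. In the table that keeps Ig genes, which take a large share of the PC libraries, Ms4a1 was at 31.1 to 33.7 TPM in PCs and these changes were -4.17 and -4.71. CD20 transcripts thus stayed well above the floor, with 5908 to 6359 estimated reads a library.

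Ms4a6b was at 0.209, 0.0670 and 1.27 TPM in PCs and Ms4a6c at 1.98, 0.716 and 6.60 TPM. Both were highest in PC replicate 3, the library with liver and macrophage transcripts. The log2 change from naive B cells was -4.57 for Ms4a6b and -2.97 for Ms4a6c, and without PC replicate 3 it was -5.06 and -3.65. Without PC replicate 2, the lowest library, that of Ms4a6c was -2.37. Ms4a6b was close to 0 in PCs, and its change from naive B cells was -3.92 with an offset of 1 and -6.13 with estimated counts. In PC replicate 3 C1qa, C1qb and C1qc were at 7.24, 15.9 and 12.6 TPM against at most 1.18 TPM in the other PC libraries, and Lyz2, a myeloid lysozyme, was at 48.2 TPM against 2.85 and 11.6 TPM. The part of macrophage RNA in these values was not tested.

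Ms4a4b was at 2.39, 1.59 and 1.80 TPM in PCs, below every library of both B cell groups, and its log2 change from naive B cells was -2.32. Ms4a7 was at 0.926, 0.603 and 1.63 TPM, below all naive libraries and again highest in PC replicate 3. Its change was -0.96 from naive and -2.93 from NP-specific B cells. The former passed 2-fold without naive replicate 1 or 2 and without PC replicate 3 (-1.21), and also in the table with Ig genes (-1.33), with an offset of 0.1 (-1.21), and when estimated counts (-1.20) or the deposited log2 values (-1.19) were fitted. With median-of-ratios scaling it was -0.47. Ms4a4d was at 0.117, 0.0762 and 0 TPM in PCs, at or below 3 estimated reads in each library.

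Ms4a6d was at 16.9, 5.0 and 11.7 TPM in PCs, and these libraries overlapped those of naive and of NP-specific B cells. The log2 change was -0.75 from naive B cells and 0.56 from NP-specific B cells. In the table that keeps Ig genes these values were -1.80 and -0.49, so the direction against NP-specific B cells depends on the table. The highest PC library for this gene was replicate 1 and the lowest replicate 2. Without PC replicate 1 the changes were -1.11 and 0.20, and without PC replicate 2 they were -0.28 and 1.03.

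The call rule was met by 5 of the 7 tested genes in PCs against naive B cells, all lower, where it was met in that direction by 26.3% of all genes. Against NP-specific B cells it was met by 6 of the 7, all lower, where the share of all genes was 22.3%. These shares depend on the scaling: against naive B cells 1473 genes were past the rule higher and 3397 lower, but 2349 and 1814 with median-of-ratios scaling and 551 and 7943 in the table with Ig genes. Against NP-specific B cells the counts were 1280 and 2870, 2023 and 1788, and 420 and 7355 in the same order. Both PC comparisons share the PC libraries, and nothing is read from these counts because PC levels chose the list. The median log2 change was -2.96 and -3.52 for the 7 genes and -0.47 and -0.30 for all genes tested. Median-of-ratios scaling moved the latter to 0.02 and 0.08, and Ms4a1 to -2.47 and -3.14. In the table with Ig genes the medians of all genes were -1.40 and -1.27.

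The summed TPM of the 8 genes was 1328 to 1605 in naive libraries, 1487 to 1812 in NP-specific libraries and 120 to 136 in PCs. Ms4a1 made up 57.7 to 60.2% of it in the naive, 74.9 to 78.3% in the NP-specific and 82.2 to 93.3% in the PC libraries. The share of Ms4a4c was 35.2 to 36.6%, 15.2 to 18.2% and at most 0.554%. Ms4a6c took 1.36 to 1.56% of the sum in naive and 3.44 to 3.79% in NP-specific libraries. Ms4a6d took 4.17 to 13.0% in PCs and 1.66% or less in every other library.

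**Figure D3:**
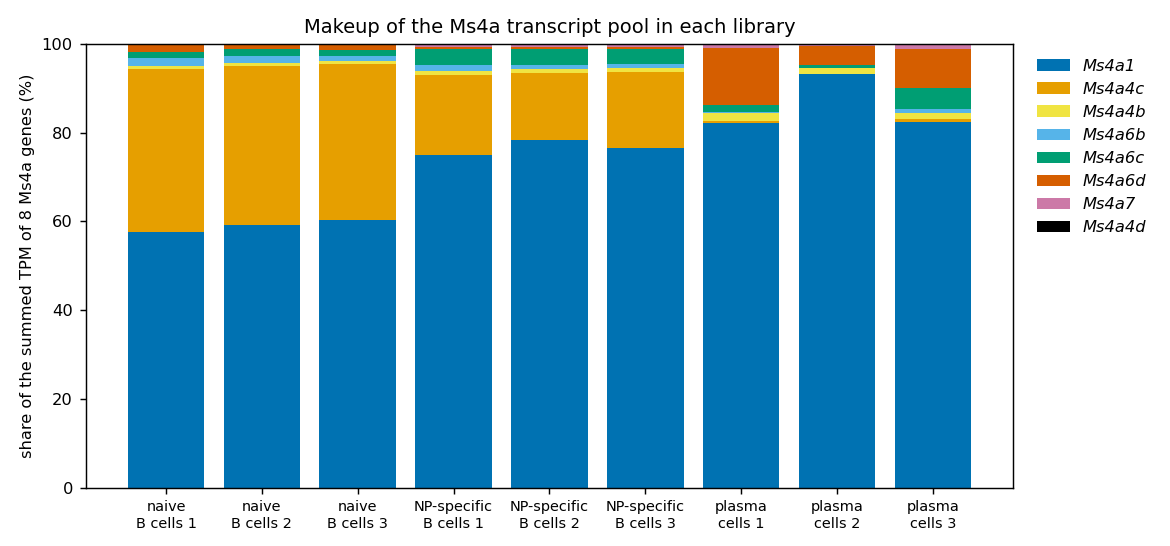
Share of each Ms4a gene in the summed TPM of the 8 genes, with 1 bar for each of the 9 libraries. The share of Ms4a4c is 35.2 to 36.6% in naive libraries, 15.2 to 18.2% in NP-specific libraries and at most 0.554% in PCs, while Ms4a6d reaches 13.0% in PC replicate 1.

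The remaining Ms4a genes of the cluster in the table, 11 in number, were at 6.04 TPM or less in every library, as the map of levels along the cluster shows. With Tmem176a and Tmem176b, distant relatives of the family, 5 of these 13 genes were tested. In NP-specific against naive B cells 2 were called, both lower, where 10.4% of all genes were called lower. Ms4a4a, the gene next to Ms4a4c, was at 5.32, 6.04 and 5.85 TPM in naive B cells and at 0.870, 2.40 and 3.07 TPM in NP-specific B cells. Its log2 change was -1.37 ± 0.31 (SE), with an adjusted p of 0.00532 by limma. The call was lost without NP-specific replicate 1 and with the deposited log2 values and no weights. Ms4a4a met the filter only with its naive libraries counted, which favoured a lower value in NP-specific B cells. Ms4a2, which encodes the beta chain of the high-affinity IgE receptor, was at 1.10 to 1.92 TPM and at 0.0725 to 0.624 TPM. It reached 1 TPM in the 3 naive libraries and in no NP-specific one. The filter itself thus favoured a lower value in NP-specific B cells, and nothing is read from the call of Ms4a2. That call was lost in 4 of 19 alternatives. Tmem176a and Tmem176b were highest in PC replicate 3, at 53.2 and 64.3 TPM against 7.33 to 12.2 TPM in the other PC libraries.

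**Figure D4:**
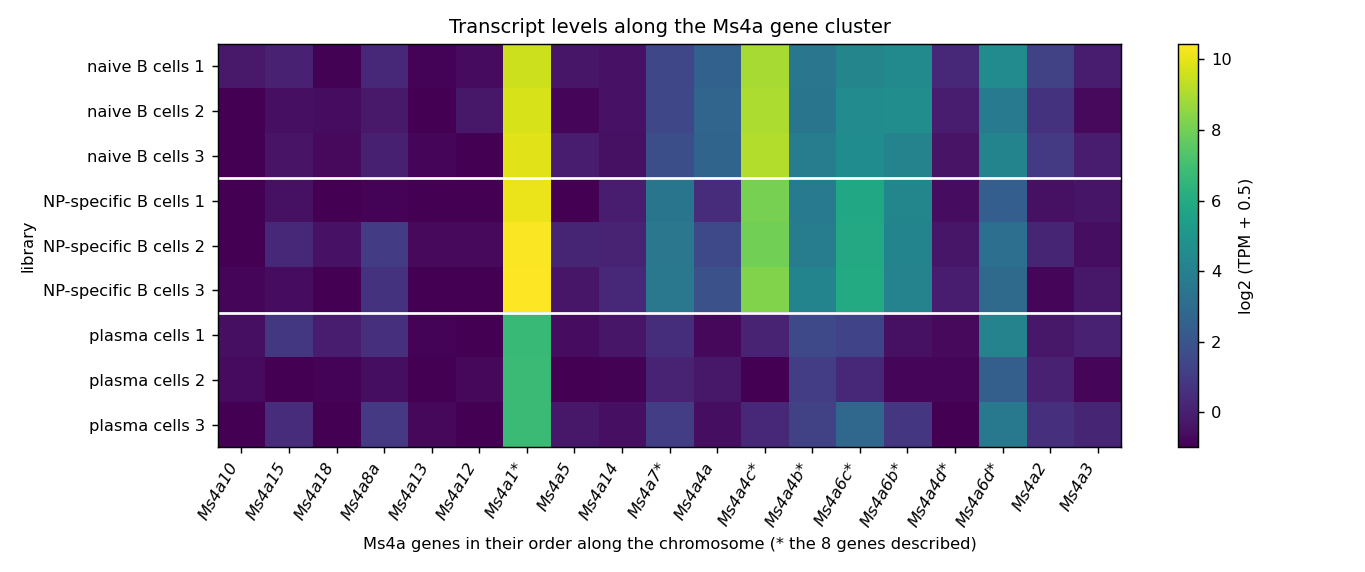
Levels of 19 Ms4a genes in their order along chromosome 19, as log2 (TPM + 0.5), with 1 row for each library and an asterisk at each of the 8 genes described. Ms4a1 and Ms4a4c are the brightest columns in both B cell groups, and Ms4a1 and Ms4a6d are the ones at 5.0 TPM or more in all 3 PC libraries.

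Among protein-coding genes within 500 kb of the outer Ms4a genes, or between them, 40 were in the table, 20 were tested and 4 were called in NP-specific B cells, a share near the 18.5% of all genes. Gm8369 lies inside the cluster, between Ms4a6c and Ms4a6b, at chr19:11488955-11512577. It was at 346, 391 and 411 TPM in naive B cells, 94.5, 121 and 101 TPM in NP-specific B cells and 20.4, 26.8 and 30.8 TPM in PCs. No library overlapped another group, and the log2 change in NP-specific B cells was -1.87 ± 0.13 (SE), with an adjusted p of 3.3e-06 by limma. The level of Gm8369 in naive B cells was thus nearer to that of Ms4a4c than to that of the Ms4a6 genes beside it, and 88 of the 31-base words of Ms4a4b occur in its transcripts. Oosp1, which lies beyond Ms4a3 and is known from oocytes, was higher at 4.47 to 9.06 TPM against 1.60 to 2.49 TPM (log2 change 1.58, adjusted p 0.00270 by limma), and was at 116 to 131 TPM in PCs. Stx3, a membrane fusion protein, and Vps37c, an endosomal sorting subunit, were lower by 1.52 and 1.13 on the log2 scale (adjusted p 0.00520 and 0.00150 by limma). The call of Vps37c was lost without naive replicate 3.

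Transcription factors known from work on the CD20 promoter were followed as a list of 9, all tested. Irf4 was the only one called in NP-specific B cells, beside 18.5% of all genes, and nothing is read from this count. Irf4 was lower, at 7.12, 14.0 and 12.2 TPM against 22.8, 24.1 and 28.5 TPM in naive B cells. The log2 change was -1.20 ± 0.27 (SE), with an adjusted p of 0.00555 by limma, and the call was lost without NP-specific replicate 1. The median change of the list was -0.55, against -0.16 for all genes tested. Spi1, which encodes PU.1, was at 127 to 194 TPM in NP-specific and 189 to 205 TPM in naive B cells, a log2 change of -0.39. Pou2f2, which encodes Oct2, was at 68.5 to 93.9 TPM and 67.3 to 76.0 TPM. In PCs, given without a test, Spi1 was at 49.5 to 57.4 TPM, Pou2f2 at 14.9 to 15.9 TPM and Irf8 at 11.1 to 23.3 TPM against 460 to 509 TPM in naive B cells. Irf4 was at 88.8 to 134 TPM there, and Pou2af1, the coactivator of Oct1 and Oct2, at 443 to 494 TPM against 183 to 199 TPM in naive B cells.

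The 13 genes for surface partners of CD20 and the signalling proteins around it were all tested. In NP-specific B cells 1 was called higher and 2 lower, beside 8.13% and 10.4% of all genes. Pag1, a raft adaptor that binds the kinase Csk, was at 23.3, 23.3 and 21.9 TPM against 54.7, 64.8 and 52.9 TPM in naive B cells (log2 change -1.32, adjusted p 2.5e-05 by limma). Cxcr4, a chemokine receptor, was at 4.58 to 8.39 TPM against 13.2 to 18.4 TPM (-1.19, adjusted p 0.00228 by limma), and its call was lost without NP-specific replicate 2. Fyn, a kinase of the Src family, was at 24.2, 10.96 and 31.1 TPM against 6.30, 8.16 and 8.64 TPM (1.34, adjusted p 0.0306 by limma). The call of Fyn was lost without any 1 of the 3 naive libraries and without NP-specific replicates 1 or 3, with no filter on low values, and with an offset of 0.1. Over the 4 lists, 10 of 47 tested genes were called, beside 18.5% of all genes. Of these, 2 were higher and 8 lower, where 8.13% and 10.4% of all genes were called. The 8 include Ms4a2 and Ms4a4a, for which the filter favoured a lower value.

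Finally, the genes whose pattern over the 9 libraries was most like that of the 2 most abundant members were listed by Pearson's r of log2 (TPM + 0.5), as a description. All 9 points share the 3 groups, so a high r mostly restates the order of the group means. For Ms4a4c they were Ncf1, a subunit of the phagocyte oxidase, the receptor gene Cd40, Serpinb1a, the nucleoside transporter gene Slc28a2 and Tnfaip8l2, with r from 0.998 to 1.000. Ncf1 had means of 212, 140 and 2.67 TPM in naive B cells, NP-specific B cells and PCs, and Cd40 254, 157 and 2.88 TPM. For Ms4a1 they were Hs3st1, the GTPase gene Gimap4, the lipid transporter gene Abca3, Ly86, which encodes a partner of the receptor RP105, and the actin gene Actg1, with r from 0.997 to 0.999. Gimap4 had means of 521, 742 and 47.1 TPM in the same order and Ly86 497, 749 and 50.1 TPM, in both cases highest in NP-specific B cells as for Ms4a1.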

How the data were processed

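RNA-seq was read from 9 libraries, 3 in each of 3 groups taken from the labels. The authors pseudoaligned reads with kallisto, and the submitters' processing notes name mm10 and no annotation. The deposited TPM values are length-corrected abundances summed by gene symbol, and the authors made the deposited log2 values with voom. Both were given with and without Ig genes. All genes with a TPM of 0 share 1 log2 value in a library, which corresponds to 0.5 counts and gives the library size and estimated counts. TPM of the table without Ig genes was passed to voom with the column sum of the whole table as library size and fitted in limma (version 3.58.1, R 4.3.3) over all 9 libraries, with 1 mean per group. A gene entered the test when 3 or more libraries reached 1 TPM (12892 of 29995 genes), and p-values were Benjamini-Hochberg adjusted over them. A log2 change is on the log2 (TPM + 0.5) scale, which understates the change of low genes. The fit was tested on simulated data. Floors cover counting error only, since no molecular identifiers were used. The study describes NP-specific B cells and PCs as sorted from the same mice, but the labels do not tie libraries to mice, so p-values measure the spread between these libraries, and the sequencer of each library was not given in the sources used here.

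The 8 genes and all lists were chosen with earlier results of these data known. The genes named are the 8 members, called genes of the lists, and for Ms4a4c and Ms4a1 the 5 genes of highest correlation. Others (Pax5, Prdm1, other markers, and Spi1, Pou2f2, Irf8 and Pou2af1) were named after their values were seen. Promoter windows and gene positions are from RefSeq on GRCm38.p6, and shared 31-base words from GENCODE M21 transcripts, counted on both strands. Windows were aligned in pairs with gaps at the window ends penalized far less than inner gaps, so ends could stay unaligned. Identity is the share of aligned bases only. Alternatives were other filters, the table with Ig genes, the deposited log2 values, estimated counts, other scalings and offsets, a replicate block, and leaving out libraries.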

Additional observations from a re-analysis of the deposited data

How the results depend on the processing

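In NP-specific against naive B cells 3 Ms4a genes were called, and 1 (Ms4a7) with the deposited log2 values and no weights; the count was 2 to 4 under every other alternative, and 2 to 3 when single libraries were left out. In PCs the rule was met by 5 genes against naive B cells and 6 against NP-specific B cells. Under the other alternatives it was met by 4 to 7 and 4 to 6. When single libraries were left out, the counts were 5 to 6 and 6 to 7. With 7 against NP-specific B cells, the gene added was Ms4a6d, which was higher in PCs (log2 change 1.03). Over the 4 lists 10 genes were called, 7 to 13 under the alternatives and 8 to 11 with single libraries left out. The log2 ratio of Ms4a4c to Ms4a1 differed by -1.48, and by -1.55 to -1.39 with single libraries left out. Depth limits Ms4a4c, Ms4a4d and Ms4a6b in PCs, where some libraries held 3 estimated reads or fewer.

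The replicate numbers are not stated to mark shared mice, and same-numbered libraries did not deviate together (correlations of -0.0749 to 0.0675), nor was every library closest to those of its own number. With a replicate block the counts of called Ms4a genes were 3, 5 and 6, as without it, the list count was 10, and the counts over all genes were 2453, 4898 and 4238 against 2388, 4870 and 4150.

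All genes called changed from 2388 in NP-specific against naive B cells to 1179 with a mean TPM of at least 10, which tests fewer genes. In PCs against naive B cells 4870 became 8494 with Ig genes and 2965 with that filter, and in PCs against NP-specific B cells 4150 became 7775 and 2640.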
